A study of Mus musculus with 12 samples.

Results

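Inguinal white adipose tissue (iWAT), the subcutaneous fat pad of the mouse groin, was compared between cold-exposed and RT-housed Atf4WT mice. The comparison used 6 of the 12 libraries of the series, namely 3 from mice exposed to cold for 24 h and 3 from mice kept at RT. Its members were the 13404 genes, of 14159 listed, that averaged 10 or more normalized counts across all 12 libraries. The series also holds 3 cold and 3 RT libraries of Atf4AKO mice, which lack *Atf4* in adipocytes through *Adipoq*-Cre. Atf4WT mice were littermates on the C57BL/6 background that carried the same floxed *Atf4* alleles without Cre. The age and sex of the mice used for sequencing are not given in the sources used here. Each library held polyadenylated RNA of whole iWAT, so the values mix adipocytes with the stromal, vascular, immune and nerve cells of the pad. In such tissue, fewer cells of a type and less RNA per cell cannot be told apart.

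White adipocytes store triglyceride in 1 large droplet, whereas beige adipocytes that appear in iWAT during cold exposure hold many small droplets and many mitochondria. Cold activates sympathetic nerves, whose noradrenaline acts on beta-adrenergic receptors, raises cAMP and starts lipolysis. The released fatty acids fuel mitochondria in which UCP1 lets protons return to the matrix without ATP synthesis, so that the energy is lost as heat. The transcriptional side of this program is classically assigned to PPAR and ERR nuclear receptors and their PGC-1 coactivators.

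Library totals over the listed genes ranged from 25719476 to 29105147 reads, and replicate libraries differed beyond counting noise. The label of adipose tissue was borne out by the adipocyte gene *Adipoq*, which lay between 55500 and 98864 normalized counts in the 6 Atf4WT libraries. The depot was not checked by this gene. The deleted gene *Atf4* stood at 5669, 4670.3 and 4107 in the RT libraries and at 7644, 7511 and 5756 in the cold libraries of Atf4WT mice, against a range of 788 to 1639 over the Atf4AKO libraries. Its rise with cold in Atf4WT mice did not pass the threshold, with a log2 change of 0.53 ± 0.22 (SE, adjusted p = 0.0805). The libraries Atf4WT RT replicate 2 and Atf4WT cold replicate 0 stood apart by skeletal muscle RNA. The summed level of 23 listed muscle markers was 2527, 3212 and 185170.0 at RT and 62398, 2645 and 2603 after cold exposure. Lymphocyte markers rose from RT to cold in Atf4WT mice, with summed levels of 472, 375 and 1280.4 for 20 T cell markers at RT and 1618, 10867 and 12702 after cold exposure. Genes led by either signal were therefore marked and are described apart.

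**Figure D1:**
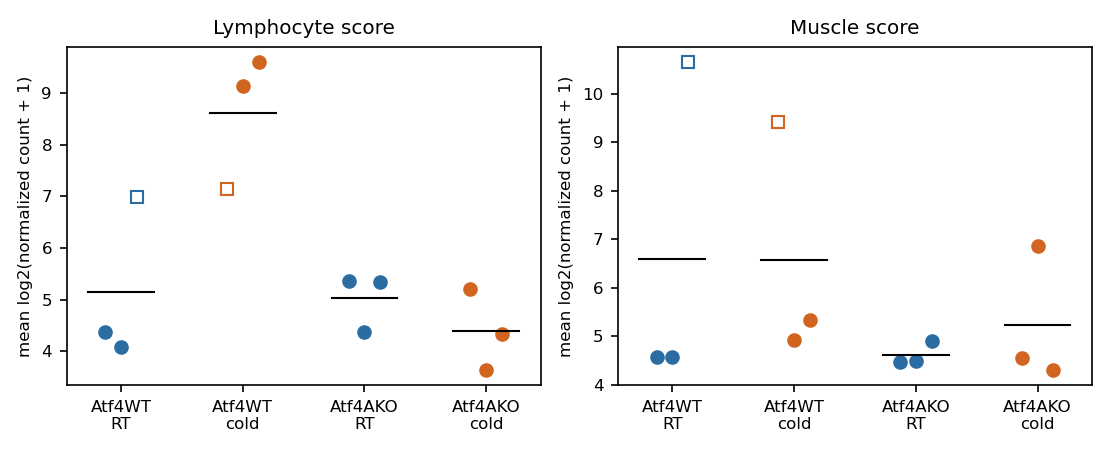
Mean log2(normalized count + 1) of lymphocyte markers (left) and skeletal muscle markers (right) in each of the 12 libraries, with 1 point per library, a bar at the group mean, and open squares for the muscle-rich libraries Atf4WT RT replicate 2 and Atf4WT cold replicate 0. The lymphocyte score is between 7.14 and 9.60 in the cold Atf4WT libraries and between 4.08 and 6.99 in the RT Atf4WT libraries.

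After cold exposure, 1222 genes were higher (9.12% of the genes tested) and 1140 were lower (8.50%), with a fold change over 1.5 and an adjusted p-value under 0.05 from limma. A value printed beside an adjusted p-value is a log2 fold change of cold over RT. The rises reached further than the falls. At least 4-fold differences were found for 235 higher and 52 lower genes, and at least 16-fold differences for 31 higher and 0 lower genes. The median log2 fold change of all tested genes was 0.00257, and 50.2% of them lay above 0. The 3 cold libraries did not overlap the 3 RT libraries for 1120 of the higher and 1124 of the lower genes. Among all 13404 genes tested, called or not, the groups did not overlap for 6269. The called genes were chosen by fold and p-value, so their lack of overlap is not independent evidence for the calls. When each of the 6 libraries was left out in turn and when both muscle-rich libraries were left out together, 597 of the higher and 640 of the lower genes were called every time. Limits printed beside single genes come mostly from these fits. A fit with the lymphocyte score as a covariate lost the calls of many named genes, most of which are not marked one by one.

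**Figure D2:**
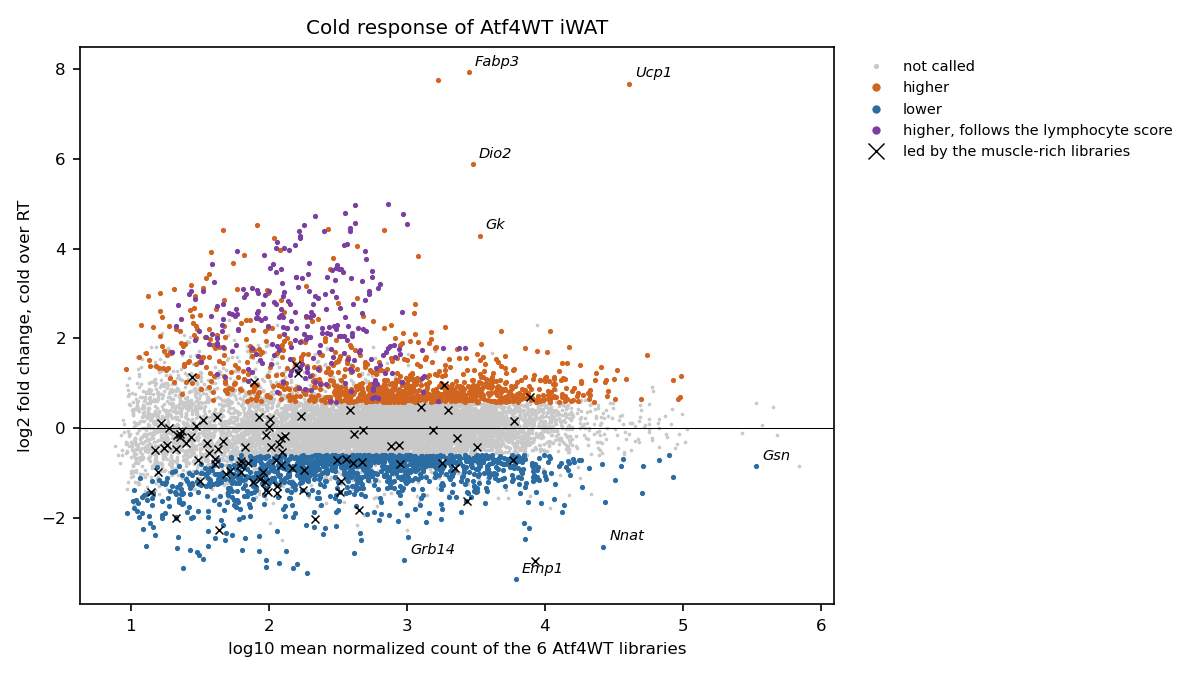
Log2 fold change of cold over RT in Atf4WT iWAT (vertical axis) against the log10 mean normalized count of the 6 Atf4WT libraries (horizontal axis), with 1 point per tested gene. The 249 purple genes follow the lymphocyte score and lie among the rises, the highest points are *Fabp3*, *Elovl3* and *Ucp1*, and the 88 crosses are genes led by the muscle-rich libraries.

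The largest rises were in genes of fatty acid handling and thyroid hormone activation. *Fabp3*, which encodes a fatty acid-binding protein of heart, muscle and brown fat and lies on chromosome 4 from 130308738 to 130315463 (GRCm38), had normalized counts of 7.35, 9.62 and 106 at RT and 5539.9, 8263 and 2949 after cold exposure. All cold libraries were far above the RT libraries, of which the muscle-rich replicate 2 was the highest. The log2 change of 7.92 ± 0.84 (SE, adjusted p = 0.000121) became 9.03 (adjusted p = 0.000101) without the muscle-rich libraries. *Elovl3*, an elongase of very-long-chain fatty acids on chromosome 19 from 46131897 to 46135694, rose from 16.5, 32.7 and 4.64 to 2932, 4557 and 2472. The groups did not overlap, and the log2 change of 7.75 ± 0.52 (SE, adjusted p = 1.49e-05) was of the same order as that of *Ucp1*, 7.67. *Dio2*, the deiodinase that converts thyroxine into active triiodothyronine, stood at 274, 89.5 and 36.2 at RT and at 7209, 4389 and 6023 after cold exposure. Every cold library lay above every RT library, with a log2 change of 5.88 ± 0.63 (SE, adjusted p = 0.000132).

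*Gk*, the glycerol kinase that lets adipocytes return glycerol to triglyceride synthesis, rose in every cold library. Its counts were 375, 334 and 269.8 at RT and 7143, 5204 and 6851 after cold exposure, a log2 change of 4.29 ± 0.17 (SE, adjusted p = 5e-07). The spread within each group was small beside the difference. *Slc27a2*, an acyl-CoA synthetase and transporter of long fatty acids, had counts of 37.7, 47.2 and 63 at RT and 854, 775 and 827 after cold exposure. The log2 change of 4.06 ± 0.28 (SE, adjusted p = 1.92e-05) was large beside the spread, and the cold libraries were nearly equal. *Mfsd2a*, a transporter of lysophosphatidylcholine, rose from 14.7, 11.5 and 12.1 to 130.5, 219.5 and 332, with a log2 change of 3.96 ± 0.37 (SE, adjusted p = 7.16e-05). The cold libraries of *Mfsd2a* spread more widely but did not reach the RT range. *Slc25a34*, a member of the mitochondrial carrier family, rose by 4.41 (adjusted p = 9.3e-05) on the log2 scale. *Phospho1*, a phosphatase of phosphocholine and phosphoethanolamine, rose by 3.83 (adjusted p = 1.72e-06). *Cyp2b10*, a cytochrome P450, had a log2 change of 4.44 (adjusted p = 0.000859), and its cold libraries differed among themselves at 155, 1019 and 380.5 counts.

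Further genes among the 15 largest rises were *Tmem82*, *Cend1*, *Pigr*, *Perm1* and *Cacna1i*, all with low counts at RT. *Pigr*, the receptor that carries polymeric immunoglobulins across epithelia, rose from 6.43, 5.77 and 9.27 to 103, 120.3 and 84.8, a log2 change of 3.68 ± 0.38 (SE, adjusted p = 0.000106). *Perm1*, a regulator that acts with PGC-1 and ERR in muscle, had 20.2, 19.2 and 122 counts at RT, highest in the muscle-rich library, and 699.5, 429 and 468 after cold exposure. The log2 change of 3.79 ± 0.56 (SE, adjusted p = 0.000796) became 4.44 (adjusted p = 4.75e-05) without both muscle-rich libraries. *Cacna1i*, a T-type calcium channel gene near *Atf4* on chromosome 15, was at 0.919, 3.85 and 78.8 at RT and 84.2, 215 and 268 after cold exposure, and at 1224, 1505 and 1701 in the RT libraries of Atf4AKO mice. The highest RT and the lowest cold library nearly met, and the call was lost with only the 6 Atf4WT libraries in the model, at 4.24 (adjusted p = 0.0505). It was 6.31 (adjusted p = 4.75e-05) without both muscle-rich libraries and 0.72 (adjusted p = 0.705) with the lymphocyte score as a covariate. *Tmem82* and *Cend1* rose by 4.53 (adjusted p = 0.000393) and 3.86 (adjusted p = 0.000465) on the log2 scale.

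**Figure D3:**
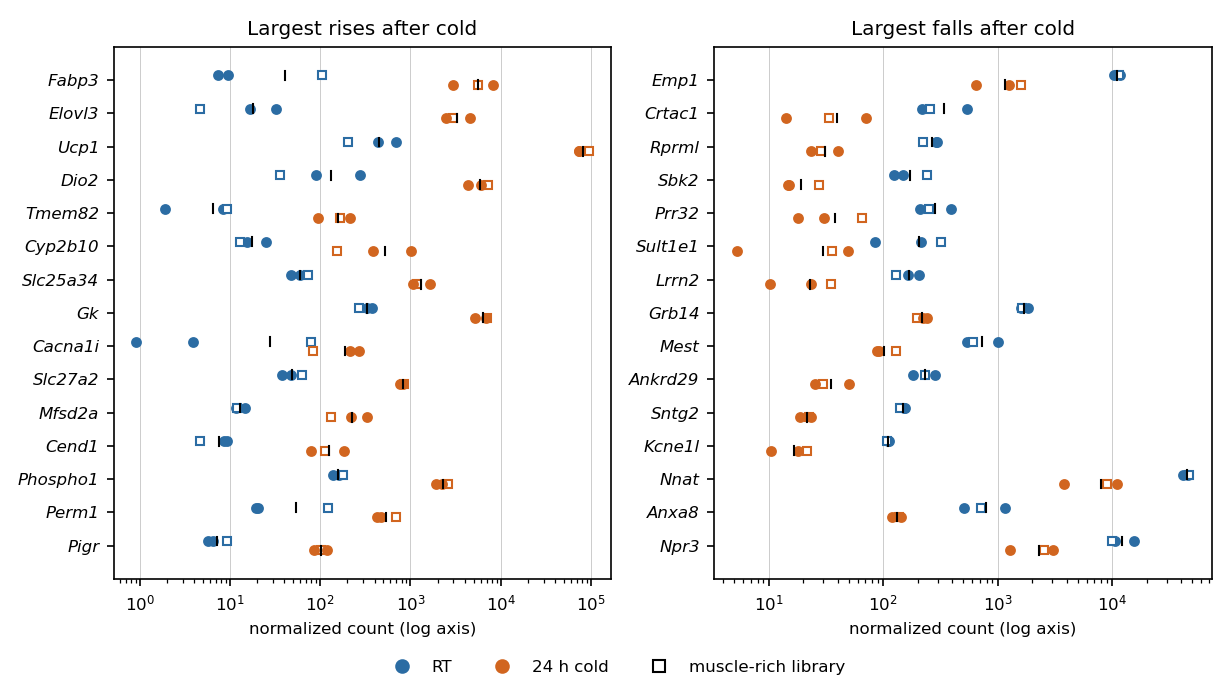
Normalized counts (log axis) of the 15 genes with the largest rises (left) and the 15 with the largest falls (right) in the 6 Atf4WT libraries, with 1 point per library, a bar at the arithmetic group mean and open squares for the muscle-rich libraries. The cold and RT libraries do not overlap for any gene shown, because the genes were chosen that way. *Fabp3*, *Perm1* and *Cacna1i* are among the genes with their highest RT value in the muscle-rich library.

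Promoters are shown for the genes of the largest rises and falls that match 1 RefSeq promoter and hold a searched motif, 3 rising and, as no other falling gene did, 2 falling. Each window runs from 250 bases before to 50 bases after the start on GRCm38.p6, and capitals mark the motif matches. Those of the rising genes *Ucp1* (chr8:83290098-83290397, plus strand), *Dio2* (chr12:90738989-90739288, minus strand) and *Cyp2b10* (chr7:25897408-25897707, plus strand) hold a nuclear receptor core motif, a cAMP response element (CRE) and a sterol response element, which begin 14, 95 and 7 bases before the start.
Ucp1: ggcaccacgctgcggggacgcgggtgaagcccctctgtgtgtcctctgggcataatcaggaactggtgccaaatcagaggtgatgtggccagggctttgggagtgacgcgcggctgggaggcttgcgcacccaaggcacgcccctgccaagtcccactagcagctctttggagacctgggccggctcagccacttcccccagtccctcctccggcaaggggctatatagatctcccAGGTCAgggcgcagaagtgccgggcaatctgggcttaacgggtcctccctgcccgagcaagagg
Dio2: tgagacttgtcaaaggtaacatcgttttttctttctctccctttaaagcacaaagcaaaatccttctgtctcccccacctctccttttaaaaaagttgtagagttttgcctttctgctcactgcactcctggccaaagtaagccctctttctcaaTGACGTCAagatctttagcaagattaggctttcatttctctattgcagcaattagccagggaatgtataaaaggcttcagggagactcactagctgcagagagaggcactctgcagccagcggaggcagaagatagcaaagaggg
Cyp2b10: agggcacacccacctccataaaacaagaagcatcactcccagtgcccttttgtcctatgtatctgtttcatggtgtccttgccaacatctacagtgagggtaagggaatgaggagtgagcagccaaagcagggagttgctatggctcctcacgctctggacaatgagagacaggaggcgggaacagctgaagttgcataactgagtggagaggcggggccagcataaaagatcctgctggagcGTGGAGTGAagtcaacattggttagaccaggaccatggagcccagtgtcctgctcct

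The falling genes *Sult1e1* (chr5:87591562-87591861, minus strand) and *Nnat* (chr2:157559828-157560127, plus strand) follow. *Sult1e1*, the estrogen sulfotransferase, holds a nuclear receptor core motif 113 and a C/EBP-ATF response element 70 bases before the start. *Nnat* holds a heat shock element 160 and an NRF1 match 26 bases before it.
Sult1e1: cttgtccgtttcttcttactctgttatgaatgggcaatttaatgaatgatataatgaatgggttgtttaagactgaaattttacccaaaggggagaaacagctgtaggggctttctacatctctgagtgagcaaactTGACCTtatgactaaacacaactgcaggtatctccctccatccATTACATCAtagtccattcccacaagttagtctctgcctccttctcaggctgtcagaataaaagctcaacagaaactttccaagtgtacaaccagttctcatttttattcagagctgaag
Nnat: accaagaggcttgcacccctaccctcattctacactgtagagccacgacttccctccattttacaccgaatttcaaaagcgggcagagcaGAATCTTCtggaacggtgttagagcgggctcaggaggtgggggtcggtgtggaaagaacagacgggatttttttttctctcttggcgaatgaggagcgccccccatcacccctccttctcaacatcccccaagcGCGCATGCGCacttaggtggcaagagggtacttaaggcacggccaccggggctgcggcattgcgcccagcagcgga

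Over the 8479 tested genes with exactly 1 promoter in the table, both strands were searched for 9 motifs. The nuclear receptor core motif AGGTCA, part of the binding sites of PPAR, ERR and thyroid hormone receptors, was in 11.7% of all promoters. It was in 17.0% of the promoters of higher genes that do not follow the lymphocyte score (114 of 670) and in 6.47% of those of lower genes (45 of 696). Among higher genes that follow the score, the share was 17.9% (26 of 145). The extended ERR element TCAAGGTCA and the NR4A response element AAAGGTCA overlap this core motif, and they were in 0.448% and 1.04% of the higher genes without the score, against 0.2% and 0.885% of all. The CRE TGACGTCA was in 2.69% of them and 1.44% of the lower genes, against 3.17% of all. NRF1 matches were in 12.2% and 7.61%, against 10.5%, and the E-box CACGTG in 76 of 670 and 58 of 696, against 852 of 8479. The sterol response element TCACNCCAC was in 1.34% and 0.718%, against 0.955%. The C/EBP-ATF response element TGATGNAAT was in 0.597% and 0.862%, against 0.413%, and the heat shock element GAANNTTC in 5.37% and 5.17%, against 5.74%. These shares are descriptions of letters in a window and were not tested. In the 100 bases before the start, the core motif was in 5.52% of these higher, 1.72% of the lower and 3.42% of all promoters.

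Thermogenic and beige genes rose widely. Of the 48 tested members of this list, 29 were higher and 1 lower, and its median log2 fold change was 1.33. *Cidea*, a lipid droplet protein of thermogenic fat, stood at 4077, 4082 and 3831 at RT and 19210.4, 18138 and 16209 after cold exposure, a log2 change of 2.16 ± 0.21 (SE, adjusted p = 8.71e-05). *Plin5*, a droplet coat protein that tethers droplets to mitochondria, rose from 870.1, 667 and 470.1 to 3226, 3191 and 2849, a log2 change of 2.25 ± 0.22 (SE, adjusted p = 7.86e-05). For both droplet genes all cold libraries exceeded all RT libraries. *Clstn3*, whose locus encodes a droplet-associated form in adipocytes, rose by 2.17 (adjusted p = 3.25e-05), and *Letmd1*, a mitochondrial protein gene needed by brown fat, by 1.59 (adjusted p = 6.46e-05). *Kcnk3*, a potassium channel of thermogenic adipocytes, rose by 1.39 (adjusted p = 0.000205). The called member that fell was *Ntrk3*, a neurotrophin receptor gene, from 1076, 953 and 1494 to 284, 365 and 271 counts, a log2 change of −1.92 ± 0.20 (SE, adjusted p = 0.000127). Every cold library of *Ntrk3* was below every RT library.

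Receptors and coactivators of the program moved unevenly. *Ppargc1b*, the coactivator related to PGC-1alpha, rose from 622, 644 and 375 to 1817, 1432 and 1678, a log2 change of 1.62 ± 0.20 (SE, adjusted p = 0.000367). *Esrra*, encoding ERRalpha, rose from 2510.0, 2195 and 1686 to 5455, 4957 and 4871, a log2 change of 1.27 ± 0.17 (SE, adjusted p = 0.000449). *Esrrg*, its relative ERRgamma, was much less abundant but rose more, from 50.5, 59.7 and 49.1 to 212, 179 and 269 and by 2.02 (adjusted p = 0.00223). None of these genes overlapped between the groups. *Ppara*, the fatty acid receptor that drives oxidation genes, rose by 1.27 (adjusted p = 0.00371). The factors that specify beige and brown adipocytes did not pass the test. *Prdm16* had a log2 change of −0.01 (adjusted p = 0.966), *Ebf2* of −0.48 (adjusted p = 0.0548) and *Zfp516* of −0.03 (adjusted p = 0.885), and *Pparg*, the general adipocyte regulator, of 0.04 (adjusted p = 0.916). For *Prdm16* the RT counts of 632, 441 and 542 and the cold counts of 564, 442 and 592 overlapped. *Ebf2* passed without cold replicate 0, at −0.59 (adjusted p = 0.039).

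Genes of fatty acid oxidation were among those that rose. Of 23 tested genes of mitochondrial oxidation, 12 were higher and 0 lower, with a median of 0.60 (0.45 without the muscle-rich libraries). *Cpt1b*, the muscle and brown fat form of the carnitine palmitoyltransferase that admits fatty acids, rose from 72.6, 120.3 and 116 to 659, 771 and 865, a log2 change of 2.91 ± 0.24 (SE, adjusted p = 3.79e-05). *Slc25a20*, the carrier that takes acylcarnitines through the inner membrane, rose from 3136, 3582 and 2986 to 11136, 11775 and 10389, a log2 change of 1.78 ± 0.14 (SE, adjusted p = 3.72e-05). Cold and RT libraries were apart for both entry steps. *Acadvl*, the first dehydrogenase for very long chains, rose by 1.23 (adjusted p = 0.000177), and *Hadha*, part of the trifunctional protein, by 1.00 (adjusted p = 0.000433). Among 26 peroxisomal genes, 7 were higher and 1 lower. The peroxisomal thioesterase gene *Acot4* rose by 1.97 (adjusted p = 4.55e-05), and *Abcd2*, a transporter of very-long-chain acyl-CoA, fell by 0.77 on the log2 scale (adjusted p = 0.00974). The call of *Abcd2* was lost with the lymphocyte score as a covariate, at −0.25 (adjusted p = 0.522).

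Of 29 genes of fatty acid uptake and triglyceride synthesis, 12 were higher and 1, *Mogat2*, was lower, with a median of 0.38. *Agpat2*, the acyltransferase that makes phosphatidic acid, stood at 30465, 31204 and 19987 at RT and 90551, 75082 and 82854 after cold exposure, a log2 change of 1.63 ± 0.23 (SE, adjusted p = 0.000633). The muscle-rich RT library was the lowest, and the cold libraries were all above the RT range. *Slc27a1*, a fatty acid transporter, rose by 1.31 (adjusted p = 0.000796). Uptake genes that are already abundant in white fat did not pass, with −0.10 (adjusted p = 0.776) for lipoprotein lipase (*Lpl*) and −0.13 (adjusted p = 0.552) for *Cd36*. The call of *Mogat2*, −1.22 (adjusted p = 0.0442), was lost in each of the 6 fits that left out 1 library, with values between −1.33 and −1.12.

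Of 22 genes of lipolysis and lipid droplets, 7 were higher and 1 lower. The lipase genes themselves did not pass, at 0.32 (adjusted p = 0.267) for *Pnpla2*, which starts triglyceride breakdown, and −0.26 (adjusted p = 0.272) for *Lipe*, the hormone-sensitive lipase. The droplet coat gene *Plin2* rose from 16301, 15105 and 11750.2 to 42695, 37562 and 30724, a log2 change of 1.36 ± 0.19 (SE, adjusted p = 0.000575). *Plin4*, the coat protein of white adipocytes, was 89211, 76725 and 78825 at RT and 60829, 59162 and 34284 after cold exposure, with −0.71 (adjusted p = 0.0285). The fall of *Plin4* lost its call when cold replicate 2, its lowest library, was left out, at −0.44 (adjusted p = 0.0832), and also without any of the 3 RT libraries.

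De novo fatty acid synthesis was mixed, with 5 of 25 genes higher and 1 lower. *Acacb*, the acetyl-CoA carboxylase whose product restrains fatty acid entry into mitochondria, rose from 7329.8, 8684 and 7399.8 to 20833, 20798 and 21791, a log2 change of 1.44 ± 0.13 (SE, adjusted p = 6.14e-05). *Mlxipl*, encoding the glucose-responsive factor ChREBP, rose by 1.04 (adjusted p = 0.00172). The best-known enzymes did not pass. Fatty acid synthase (*Fasn*) had a log2 change of 0.57 (adjusted p = 0.212) and the desaturase *Scd1*, listed with up to 1173380 counts, one of −0.85 (adjusted p = 0.228). *Fads3* fell by 1.10 on the log2 scale (adjusted p = 0.002). Of 29 genes of cholesterol synthesis and uptake, 6 were higher, among them *Hsd17b7* at 1.48 (adjusted p = 0.00181) and *Hmgcs1* at 1.06 (adjusted p = 0.000384), and the receptor gene *Lrp1* was lower at −0.86 (adjusted p = 0.000532).

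Of 34 genes of glycolysis and glucose uptake, 9 were higher and 0 lower, with a median of 0.44 (0.30 without the muscle-rich libraries). *Slc16a1*, the monocarboxylate transporter of lactate and ketones, rose from 2835, 1974 and 2038 to 7144, 5833 and 6701, a log2 change of 1.54 ± 0.18 (SE, adjusted p = 0.000267). *Ldhb*, the lactate dehydrogenase subunit that favours lactate use, rose by 1.32 (adjusted p = 0.00113), and *Pgk1*, a glycolytic kinase gene, by 1.13 (adjusted p = 0.000108). The glucose transporter genes *Slc2a4* and *Slc2a1* did not pass, at 0.32 (adjusted p = 0.306) and 0.12 (adjusted p = 0.636). Among 13 genes of the pyruvate dehydrogenase complex, its regulators and the pyruvate carrier, 7 were higher, including *Mpc2* at 1.27 (adjusted p = 0.00116) and *Pdhx* at 1.15 (adjusted p = 0.000673). *Pdk4*, the kinase that switches the complex off, was 3542, 3339 and 8706 at RT, highest in the muscle-rich library, and 20163, 11693 and 14627 after cold exposure, with 1.69 (adjusted p = 0.0111).

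Of 19 TCA cycle genes, 11 were higher, among them *Idh3a* at 1.40 (adjusted p = 0.000104). The cycle list had 1 lower gene, the NADP-dependent isocitrate dehydrogenase *Idh2*, from 6039, 6083 and 5327 to 3503, 3645 and 3218, a log2 change of −0.75 ± 0.09 (SE, adjusted p = 0.000327). Its cold libraries all lay below its RT libraries. Of 22 glycogen genes, 2 were higher, among them *Gys2*, and 4 were lower. *Gys2*, a glycogen synthase, rose from 1534, 1788 and 865 to 4111, 3512 and 4323, a log2 change of 1.57 ± 0.30 (SE, adjusted p = 0.00315). *Pygb*, a glycogen phosphorylase, fell from 12434, 12944 and 11909 to 5429, 6189 and 5257, a log2 change of −1.15 ± 0.13 (SE, adjusted p = 0.000209), and *Stbd1*, a glycogen-binding protein gene, fell, at −1.38 (adjusted p = 0.00179). Neither direction had overlapping libraries. In the creatine list of 5 genes, 1 was higher, *Alpl*, and 2 were lower, *Gamt* and *Gatm*. *Alpl*, at 0.95 (adjusted p = 0.0181), lost its call without RT replicate 2, cold replicate 0, cold replicate 2 or both muscle-rich libraries, with values down to 0.66, and *Gatm*, at −0.90 (adjusted p = 0.0295), without RT replicate 0 or 2 or cold replicate 1 or 2, with values between −0.94 and −0.69. The synthesis gene *Gamt* fell from 1087, 1179.8 and 794 to 317, 214 and 279, a log2 change of −1.91 ± 0.22 (SE, adjusted p = 0.000179). *Bcat1*, the cytosolic branched-chain aminotransferase, fell by 1.79 on the log2 scale (adjusted p = 0.0135), and 24 of 26 genes of branched-chain amino acid breakdown were not called.

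Many genes of mitochondrial machinery rose. Of 83 OXPHOS subunit genes, 48 were higher and 1 lower. The lower one was *Cox4i2*, at −0.72 (adjusted p = 0.0262), a call lost without RT replicate 0 or 1 or cold replicate 1 or 2, with values between −0.76 and −0.56, and *Cox7a1*, a subunit of brown fat and muscle, led the rises at 2.11 (adjusted p = 0.000202). Of 22 import genes, 14 were higher and 0 lower, and *Timm8a1*, an intermembrane space chaperone of import, rose from 163, 166 and 173 to 701, 569 and 564, a log2 change of 1.85 ± 0.16 (SE, adjusted p = 4.6e-05). All its cold libraries were higher than its RT libraries. Of 40 carriers, 10 were higher and 0 lower, including the NAD carrier gene *Slc25a51* at 1.19 (adjusted p = 0.000106) and *Slc25a42*, which carries coenzyme A, at 1.18 (adjusted p = 0.000831). Of 12 genes of coenzyme Q synthesis, 5 were higher, led by *Pdss1*, which builds its side chain, at 1.60 (adjusted p = 6.99e-05). Of 33 mitochondrial chaperones and proteases, 10 were higher and 1 lower, with *Hspa9*, the import motor, at 1.03 (adjusted p = 0.000805) and the mitochondrial RNA polymerase gene *Polrmt* at 0.87 (adjusted p = 6.29e-05). Of the 76 mitochondrial ribosome genes, 22 were higher and 1, *Mrps6*, lower at −0.62 (adjusted p = 0.0118), which fell under the fold threshold without RT replicate 1, at −0.48 (adjusted p = 0.0479), or cold replicate 2, at −0.49 (adjusted p = 0.0446).

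Of 42 genes of beta-adrenergic and cAMP signalling, 5 were higher and 2 lower, a median of 0.11. *Adcy3*, an adenylyl cyclase that makes cAMP, rose from 1483, 1501 and 1417 to 5698, 5352 and 5104, a log2 change of 1.87 ± 0.13 (SE, adjusted p = 2.07e-05). *Adrb3*, the main beta-adrenergic receptor of adipocytes, stood at 19789, 16404 and 24661 at RT and 13430.1, 10537 and 6471 after cold exposure, a log2 change of −1.04 ± 0.28 (SE, adjusted p = 0.0163). The groups did not overlap, but the highest RT library was the muscle-rich one and the call was lost without it, at −0.89 (adjusted p = 0.0544), and without cold replicate 2, at −0.75 (adjusted p = 0.0564). *Pde4a*, a phosphodiesterase that degrades cAMP, rose by 0.78 (adjusted p = 0.00992). The alpha-1 receptor gene *Adra1a* rose by 0.69 (adjusted p = 0.00253).

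Of 27 immediate early and Nr4a genes, 4 were higher and 1 lower. *Nr4a3*, an orphan nuclear receptor gene induced by cAMP, rose from 57, 23.1 and 60.3 to 217, 125 and 226, a log2 change of 2.06 ± 0.42 (SE, adjusted p = 0.00445), and *Nr4a2* rose by 0.93 (adjusted p = 0.00445). *Nr4a1* spread too widely for a call, with 447, 117 and 298 at RT, 1114, 297 and 1236 after cold exposure and 1.56 (adjusted p = 0.195). *Fos* was not called either, and its value of 836 in cold replicate 2 stood above the 34.8 and 128 of the other cold libraries. *Egr3* rose by 1.79 (adjusted p = 0.0354), with a correlation of 0.86 to the lymphocyte score over the 12 libraries, and had 0.17 (adjusted p = 0.906) with that score as a covariate. Its call was lost without RT replicate 0 or 1 or cold replicate 1 or 2, with values down to 1.31. Of 19 clock genes, 2 were higher and 1 lower, near the shares of all genes. *Nfil3*, a repressor of the clock output, rose from 334, 273 and 326 to 508, 522 and 897, a log2 change of 1.00 ± 0.23 (SE, adjusted p = 0.00732), and the collection time of the tissues is not given in the sources used here.

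Secreted factors leaned to lower values. Of 43 genes of adipokines and other secreted factors, 3 were higher and 10 lower, with a median of −0.30. *Fgf21*, the hormone that fat and liver release under cold or fasting, had 7.35, 9.62 and 2.78 counts at RT and 44.2, 76 and 21.7 after cold exposure, a log2 change of 2.63 ± 0.54 (SE, adjusted p = 0.00457). All of these levels were low, though the groups did not overlap. *Inhbb*, encoding the beta B subunit of activin, fell from 1808, 1851 and 1511 to 449, 291 and 252, a log2 change of −2.42 ± 0.24 (SE, adjusted p = 0.000101). *Sfrp5*, a secreted WNT inhibitor, fell from 218, 542 and 299 to 90.4, 69.7 and 56.5, a log2 change of −2.19 ± 0.34 (SE, adjusted p = 0.00107). *Npr3*, the receptor that clears natriuretic peptides, fell from 10592, 15581 and 10072 to 2549, 3030.3 and 1279, a log2 change of −2.46 ± 0.45 (SE, adjusted p = 0.00237). Each of these falling genes separated the groups completely. *Adipoq* was lower at −0.60 (adjusted p = 0.0148) but lost the call without RT replicate 0, at −0.58 (adjusted p = 0.0485), RT replicate 1, at −0.57 (adjusted p = 0.0492), or cold replicate 2, at −0.52 (adjusted p = 0.0535). *Lep*, encoding leptin, was not called with limma, with 23805, 36580.3 and 14651 at RT, 10797, 8701 and 13311 after cold exposure and −1.12 (adjusted p = 0.0529). It passed without RT replicate 2, at −1.45 (adjusted p = 0.0236), with edgeR, at −1.20 (adjusted p = 0.0353), with DESeq2, at −1.19 (adjusted p = 0.0207), and under 5 other alternatives.

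The falls were led by *Emp1*, an epithelial membrane protein gene on chromosome 6 from 135362550 to 135383173. It stood at 11656, 10295 and 11405 at RT and 1600.4, 646 and 1247 after cold exposure, a log2 change of −3.35 ± 0.36 (SE, adjusted p = 0.00014). The RT libraries were close together, and every cold library was far below them. *Grb14*, an adaptor that inhibits the insulin receptor, lies on chromosome 2 from 64912476 to 65022766 and fell from 1826, 1584 and 1645 to 198, 239.6 and 221, a log2 change of −2.94 ± 0.24 (SE, adjusted p = 4.01e-05). It was the only lower gene of 40 in the insulin signalling list, of which 3 were higher. *Crtac1*, an extracellular matrix protein gene, fell from 218, 543 and 258 to 33.9, 70.7 and 14.1, a log2 change of −3.22 ± 0.66 (SE, adjusted p = 0.00435). The spread of *Crtac1* within each group was wider than that of *Grb14*, without overlap. *Sult1e1*, the estrogen sulfotransferase whose promoter is among those shown, was 213, 85.7 and 319 at RT and 36, 5.28 and 49 after cold exposure, with −3.00 (adjusted p = 0.0429). This call was lost when RT replicate 0 or 2, cold replicate 0 or 1, or both muscle-rich libraries were left out, with values between −3.35 and −2.08.

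The other large falls were *Rprml* (−3.10), *Sbk2* (−3.10), *Prr32* (−3.01), *Lrrn2* (−2.94), *Ankrd29* (−2.74), *Sntg2* (−2.73), *Kcne1l* (−2.71) and *Anxa8* (−2.49 on the log2 scale). *Sntg2*, a syntrophin gene, had even groups, 151, 155 and 140.0 at RT and 22.6, 23.2 and 18.8 after cold exposure, and an adjusted p-value of 3.79e-05. *Kcne1l*, a potassium channel subunit gene, fell likewise, with 111, 113 and 108 at RT and 21.6, 10.6 and 17.9 after cold exposure. The adjusted p-values of these 8 genes lay between 3.79e-05 and 0.00658.

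Of 10 tested genes in the list of imprinted growth genes and lncRNAs, 6 were lower, 0 higher, and all 10 had a fold change below 1, with a median of −1.10 on the log2 scale. *Nnat*, encoding neuronatin of white adipocytes, was among the 5 called genes that lost most counts, with 46028, 41702 and 47332 at RT and 8966, 11019 and 3829 after cold exposure, a log2 change of −2.64 ± 0.45 (SE, adjusted p = 0.00184). *Mest*, a marker of fat pad expansion, fell from 544, 1016 and 609 to 128, 91.8 and 87.6, a log2 change of −2.77 ± 0.39 (SE, adjusted p = 0.000603). *Ndn*, encoding necdin, fell from 1156, 1404 and 1229 to 631, 482 and 442, a log2 change of −1.30 ± 0.13 (SE, adjusted p = 0.000106). In all of these genes the cold libraries were below the RT libraries. *Plagl1*, an imprinted zinc finger gene, fell, at −1.34 (adjusted p = 0.000865) and *Sgce*, a sarcoglycan gene, at −0.91 (adjusted p = 0.000349). *Dlk1*, the preadipocyte factor, was lower at −1.87 (adjusted p = 0.0171), a call lost without RT replicate 0, RT replicate 1 or cold replicate 2, at values between −1.68 and −1.62.

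Matrix genes fell together with some stromal genes. Of 34 tested collagens, 12 were lower and 4 higher, and of 44 genes of the matrix and its remodelling, 12 were lower and 0 higher. *Col3a1*, a fibrillar collagen, stood at 79338, 64615 and 75548 at RT and 35618, 18142 and 30072 after cold exposure, a log2 change of −1.44 ± 0.29 (SE, adjusted p = 0.00387). The type VI collagen genes *Col6a1*, *Col6a2* and *Col6a3* fell, at −1.42 (adjusted p = 0.00235), −1.67 (adjusted p = 0.0007) and −1.65 (adjusted p = 0.00488). *Sparc*, a collagen-binding matricellular protein, fell from 112587, 120610.0 and 112129 to 64954, 50220.4 and 49598, a log2 change of −1.08 ± 0.15 (SE, adjusted p = 0.000673). For all of these the groups did not overlap, and cold replicate 1 was the lowest of the cold libraries for the 4 collagens. *Col1a1* was not called, at −1.49 (adjusted p = 0.0522), but was without cold replicate 0, at −1.89 (adjusted p = 0.028). *Adamts2*, the protease that trims procollagens, fell, at −1.44 (adjusted p = 0.00609). Collagens that rose were *Col10a1* at 2.94 (adjusted p = 0.00123) and *Col27a1* at 1.35 (adjusted p = 0.00137), and *Col6a5* at 1.80 (adjusted p = 0.05), whose groups overlapped and whose call was lost without RT replicate 0 or 1, cold replicate 0 or 2 or both muscle-rich libraries, with values between 1.20 and 2.12. Of 29 progenitor and stromal genes, 4 were lower and 2 higher, with *Zfp423*, a factor that holds adipocytes in the white state, at −0.97 (adjusted p = 0.00072). The median of this list moved from −0.61 to −0.28 without cold replicate 1.

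Markers of other cell types of the pad were counted in the same way. For comparison, 9.12% of all tested genes were higher and 8.50% lower. Of 31 macrophage markers, 2 were lower and 0 higher, and their summed level was 54592, 52362 and 63227 at RT and 52473, 22104 and 52865 after cold exposure. *Mgl2*, a lectin of resident macrophages, fell from 1678, 1563 and 2069 to 646, 332 and 608, a log2 change of −1.79 ± 0.39 (SE, adjusted p = 0.00627). Cold replicate 1 was the lowest library in both measures. Of 34 endothelial and angiogenic genes, 3 were lower, near the share of all tested genes, and 0 higher. Their median was −0.11, and 15 of them lay above 0. The tight junction gene *Cldn5* was lower at −1.09 (adjusted p = 0.00864). With the lymphocyte score as a covariate it was not called, at −1.06 (adjusted p = 0.144). Of 13 smooth muscle and pericyte markers, 1 was lower, the pericyte gene *Rgs5*, at −1.15 (adjusted p = 0.00043). Of the 10 tested neutrophil and mast cell markers 1 was lower, and none of the 6 epithelial, 2 erythroid and 31 proliferation genes was called. Of 25 epithelial and 11 erythroid markers, 8 and 5 were listed, with summed levels from 295 to 637 and from 227 to 441 counts. Of 19 white adipocyte markers, 1 was higher and 4 were lower, a median of −0.10.

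Interferon-stimulated genes were lower, with 10 of 34 called lower, 0 called higher and a median of −0.49. *Gbp2*, a guanylate-binding protein gene, fell from 2493, 2598 and 2968 to 1293, 1484 and 1706, a log2 change of −0.85 ± 0.13 (SE, adjusted p = 0.000796), and *Ifit3* fell, at −1.16 (adjusted p = 0.00725). The RT and cold libraries of *Gbp2* did not overlap. Of 18 glucocorticoid-responsive genes, 2 were higher and 2 lower. The metallothionein gene *Mt2*, which glucocorticoids and zinc induce, fell from 1176, 1968 and 1623 to 431, 487 and 315, a log2 change of −1.94 ± 0.29 (SE, adjusted p = 0.000866).

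Stress genes did not move as a block. The list of the ATF4 pathway and stress response had 10 higher and 5 lower genes of 45, and a median of 0.15. *Atf5*, a factor of the mitochondrial stress response, rose from 4605, 4636 and 4295 to 10742, 10729 and 8372, a log2 change of 1.13 ± 0.12 (SE, adjusted p = 0.000106). *Slc3a2*, the heavy chain of amino acid exchangers, rose from 3587, 3744 and 3019 to 7093, 6576 and 6911, a log2 change of 1.00 ± 0.12 (SE, adjusted p = 0.000245). Other members of the list fell. *Phgdh*, which starts serine synthesis, fell from 10154, 11384 and 8894 to 4658, 4129 and 3563, a log2 change of −1.30 ± 0.13 (SE, adjusted p = 0.000106), and *Pycr1*, the last enzyme of proline synthesis, fell from 92.8, 96.2 and 83.4 to 21.6, 12.7 and 17, a log2 change of −2.37 ± 0.40 (SE, adjusted p = 0.00171). The groups were apart for all of these genes. *Asns*, asparagine synthetase, rose by 0.75 (adjusted p = 0.0102), and lost the call without both muscle-rich libraries, at 0.67 (adjusted p = 0.0603). *Mthfd2*, a mitochondrial folate enzyme gene, had a correlation of 0.86 to the lymphocyte score beside its log2 fold change of 1.21, which was 0.55 (adjusted p = 0.506) with that score as a covariate. Its call was lost without RT replicate 2, at 1.13 (adjusted p = 0.0513), or cold replicate 1, at 0.96 (adjusted p = 0.0711). Of 25 ER chaperone genes, 1 was higher, *Dnajb9*, at 1.01 (adjusted p = 4.87e-05), and 2 were lower, *Pdia6* and *Xbp1*. *Xbp1*, a factor of the unfolded protein response, had −0.66 (adjusted p = 0.00408) and fell under the fold threshold without RT replicate 0, at −0.56 (adjusted p = 0.0185), or cold replicate 2, at −0.55 (adjusted p = 0.0162). Of 25 cytosolic heat shock genes, 2 were higher and 1 lower, with *Hspa8* at 1.07 (adjusted p = 0.000681) and the small chaperone *Cryab* at −1.87 (adjusted p = 0.00313). Of 42 antioxidant genes, 7 were higher and 4 lower, with glutaredoxin (*Glrx*) at 1.64 (adjusted p = 6.88e-05), mitochondrial superoxide dismutase (*Sod2*) at 1.04 (adjusted p = 0.000714) and *Gpx7*, an ER peroxidase, at −1.21 (adjusted p = 9.93e-05).

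**Figure D4:**
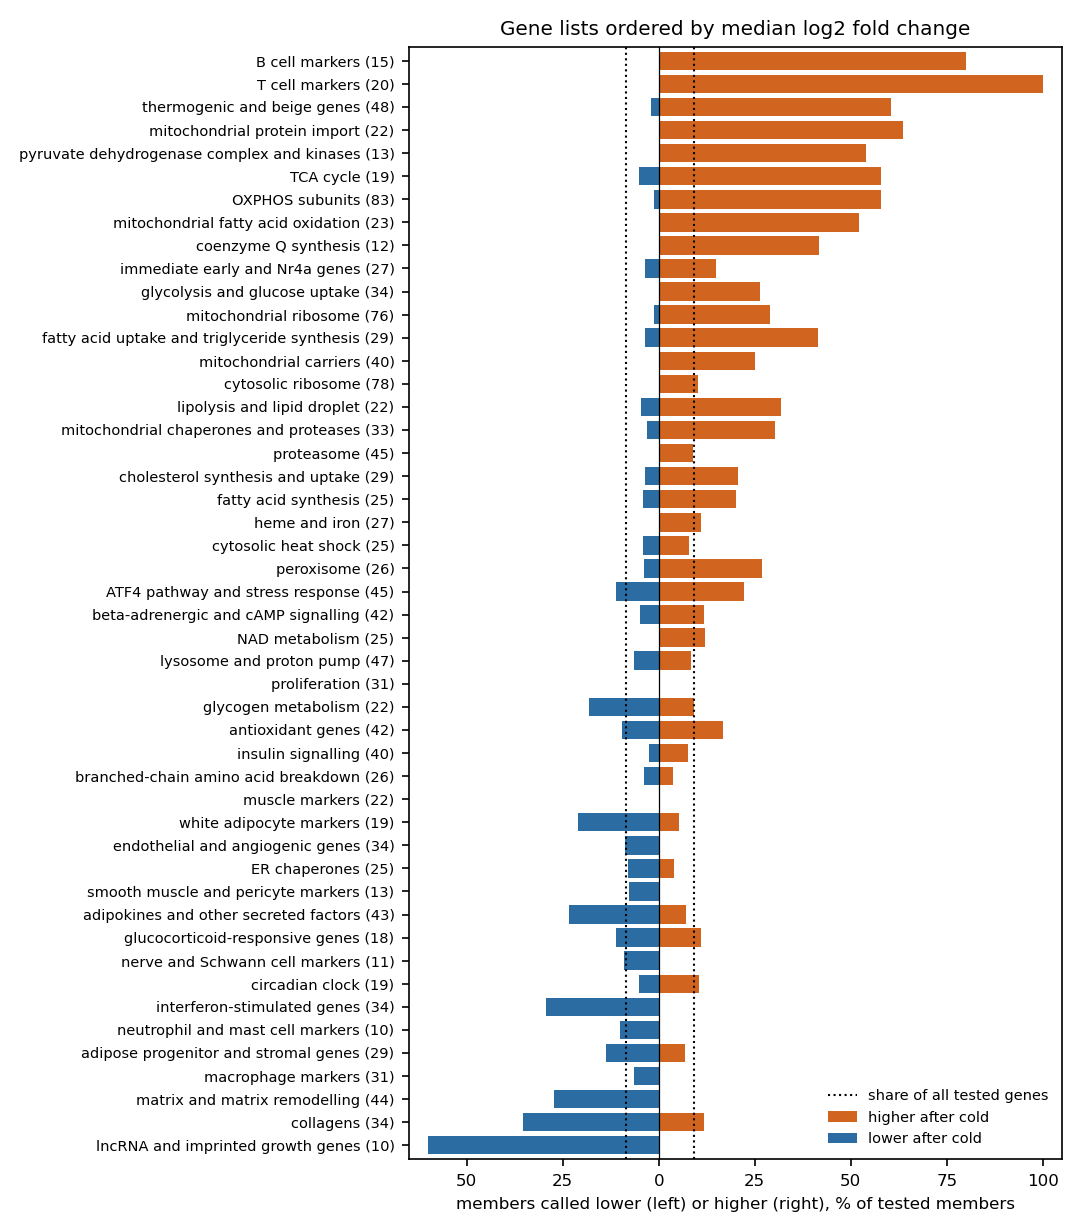
Share of tested members called higher (right) or lower (left) after cold exposure for each gene list with at least 10 tested members (number in brackets), ordered by the median log2 fold change of the list. The dotted lines mark the shares of all tested genes, 9.12% and 8.50%, and the longest bars are T cell markers on the right and the list of lncRNAs and imprinted growth genes on the left.

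Some lists had a share of higher calls near that of all tested genes. Higher and lower calls were 4 and 0 of 45 for the proteasome, 4 and 3 of 47 for the lysosome and proton pump, 3 and 0 of 27 for heme and iron, and 3 and 0 of 25 for NAD metabolism. Of the 45 proteasome genes, 42 had a log2 fold change above 0, with a median of 0.31. The cytosolic ribosome had the same form. Only 8 of its 78 genes were called higher and 0 lower, yet 77 of 78 had a log2 fold change above 0. Their median was 0.37, which is under the fold threshold. Their summed level was 647240.0, 644070.0 and 629100.0 at RT and 831200.0, 817270.0 and 826170.0 after cold exposure, so that the groups did not overlap. Under 75th percentile scaling the median was 0.34, and with the lymphocyte score as a covariate it was 0.37. In Atf4AKO iWAT the median of the same list was −0.0015.

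In absolute counts, the called genes that gained most were *Ucp1*, *Gpd1*, *Thrsp*, *Agpat2* and *Aldoa*. *Gpd1*, which makes glycerol 3-phosphate for triglycerides, rose from 70177, 74112 and 39113 to 131886, 126100.0 and 137890.0, a log2 change of 1.16 ± 0.29 (SE, adjusted p = 0.0109). *Thrsp*, a lipogenic protein gene under thyroid hormone control, rose by 1.08 (adjusted p = 0.0132). In both genes the muscle-rich RT library was the lowest, and the call was lost without both muscle-rich libraries, at 0.87 (adjusted p = 0.0667) for *Gpd1* and 0.85 (adjusted p = 0.0628) for *Thrsp*. *Aldoa*, the glycolytic aldolase, at 0.70 (adjusted p = 0.0187), also lost its call without both, at 0.57 (adjusted p = 0.126), and without RT replicate 0 or 2 or cold replicate 0 or 1, with values down to 0.62. The called genes that lost most were *Gsn*, *Sparc*, *Col3a1*, *Nnat* and *Adipoq*. *Gsn*, encoding the actin-severing protein gelsolin, was 470937, 439517 and 394715 at RT and 250004, 258525 and 222092 after cold exposure, a log2 change of −0.84 ± 0.23 (SE, adjusted p = 0.0193). Its groups were apart, but the call was lost without RT replicate 0 or 1, cold replicate 1 or 2 or both muscle-rich libraries, with values between −0.93 and −0.77.

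The genes that follow lymphoid signal formed a separate block among the rises. Of the higher genes, 249 (20.4%) had a correlation of at least 0.9 with the lymphocyte score over the 12 libraries. Among all 13404 tested genes, 288 did. No lower gene did, but the score was higher in every cold than in every RT library of Atf4WT mice. The direction of these genes, and in part the size of their change, was therefore fixed by how they were chosen. Another 76 higher genes had a correlation from 0.8 to under 0.9. The median log2 fold change of the 249 genes was 2.23, against 0.88 for the other 973 higher genes. All 20 T cell markers and 12 of 15 B cell markers were higher, with medians of 3.35 and 4.40. Every listed gene has at least 1 read in each library, so presence in all libraries does not set the defining markers apart. *Cd3e* was 12.9, 13.5 and 38 at RT and 47.3, 413 and 422 after cold exposure. *Cd79a* was 23, 13.5 and 772 at RT and 723, 1792 and 2667 after cold exposure. The groups overlapped for *Cd79a*, whose call at 4.55 (adjusted p = 0.0175) was lost without RT replicate 0 or 1 or cold replicate 1 or 2, with values down to 3.47, and was not made by edgeR, at 2.63 (adjusted p = 0.103), or DESeq2, at 2.68 (adjusted p = 0.0838). The fibroblastic and venule cells of lymph nodes, which lie within this fat pad, were covered by 3 listed markers of 8, of which 2 were higher, *Fut7* at 2.03 (adjusted p = 0.00528) and *Madcam1* at 2.09 (adjusted p = 0.0169), whose call was lost without RT replicate 0 or 1 or cold replicate 1, with values down to 1.75. Their summed level was 215, 154 and 451 at RT and 725, 607 and 1623 after cold exposure, and the part of lymph node tissue in these rises was not tested.

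The most abundant genes of this block were *Coro1a*, *Arhgap45*, *Ptprc*, *Vars* and *Limd2*. *Ptprc*, the leukocyte surface protein CD45, was 650.5, 488 and 1181 at RT and 1236, 2699 and 4645 after cold exposure, a log2 change of 1.79 ± 0.55 (SE, adjusted p = 0.0299). *Coro1a*, a leukocyte actin regulator, was 851, 769.9 and 1898 at RT and 1902, 4713 and 5752 after cold exposure, a log2 change of 1.79 ± 0.56 (SE, adjusted p = 0.0304). For both, RT replicate 2 and cold replicate 0 nearly met. Both calls were lost without RT replicate 0 or 1 or cold replicate 1 or 2, with values down to 1.34 and 1.48. *Vars*, the valyl-tRNA synthetase of all cells, also passed the correlation, with a log2 fold change of 0.60, which fell under the fold threshold without RT replicate 0 or 1 or cold replicate 1 or 2. *Arhgap45* at 1.78 (adjusted p = 0.0137) and *Limd2* at 1.17 (adjusted p = 0.0164) lost their calls without RT replicate 1, at 1.59 (adjusted p = 0.0531) and 1.01 (adjusted p = 0.0644), and without cold replicate 2, at 1.49 (adjusted p = 0.0538) and 0.90 (adjusted p = 0.0627). *Arhgap45* also lost it without RT replicate 0, at 1.64 (adjusted p = 0.0504), and *Limd2* without cold replicate 1, at 0.99 (adjusted p = 0.0622). Of 9 tested MHC class II genes, 2 were higher, *H2-Oa* at 3.15 (adjusted p = 0.0192) and *H2-Ob* at 3.11 (adjusted p = 0.0218), and 6 were lower in Atf4AKO mice. Both calls were lost without RT replicate 0 or 1 or cold replicate 1 or 2, with values down to 2.62 and 2.48, and that of *H2-Ob* also with edgeR, at 2.21 (adjusted p = 0.0838), DESeq2, at 2.25 (adjusted p = 0.0595), and only the Atf4WT libraries, at 3.12 (adjusted p = 0.0554). With the lymphocyte score as a covariate, the log2 fold changes of *Coro1a*, *Arhgap45* and *Ptprc* were −0.44, −0.04 and −0.38.

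Among all tested genes, 88 were at least 2-fold higher in RT replicate 2 than in each other RT library and in cold replicate 0 than in each other cold library, and 2 of these were called. Both were lower and had overlapping groups. Of all 13404 tested genes, 2362 were called. The mark asks for a wide spread within both groups, so the small number of calls was fixed in large part by that choice. Without both muscle-rich libraries, 941 of the 1222 higher and 892 of the 1140 lower genes were called again. *Pkia*, an inhibitor of protein kinase A, was 279, 341 and 805 at RT and 323, 77.1 and 156 after cold exposure, with −1.43 (adjusted p = 0.042), and had −0.97 (adjusted p = 0.144) without RT replicate 2 but −1.48 (adjusted p = 0.0125) without both muscle-rich libraries. *Plaat1*, a phospholipase and acyltransferase gene, was 12.9, 21.2 and 69.5 at RT and 16.4, 4.22 and 2.83 after cold exposure, with −1.99 (adjusted p = 0.0488), and had −1.32 (adjusted p = 0.171) without RT replicate 2 but −1.97 (adjusted p = 0.032) without both. Both calls were also lost without RT replicate 1 or cold replicate 1 or 2. None of the 22 tested muscle markers was called. *Acta1*, skeletal actin, had the values 389.6, 789 and 35541 at RT and 13734, 38 and 42.4 after cold exposure, and its standard error of 2.44 on the log2 scale was close to its log2 fold change of −2.96. *Atp2a1*, *Tnnt3*, *Tpm1* and *Myl1* were not called either, with log2 fold changes between −0.71 and 0.70.

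The cold response was set beside that of Atf4AKO iWAT, whose libraries are separate although the model shares its estimate of the spread. In Atf4AKO mice, 980 genes were higher (7.31% of the genes tested) and 805 lower (6.01%) after cold exposure. Of the 1222 higher genes of Atf4WT mice, 703 were also higher in Atf4AKO mice, which is 57.5% of the Atf4WT and 71.7% of the Atf4AKO genes. Of the 1140 lower genes, 575 were also lower, which is 50.4% of the Atf4WT and 71.4% of the Atf4AKO genes. No gene that follows the lymphocyte score was among the shared ones, but the score was taken over all 12 libraries, so this was fixed in part by how these genes were chosen. The median log2 fold changes of the higher genes outside this block were 0.88 in Atf4WT and 0.80 in Atf4AKO mice, and those of the lower genes −0.91 and −0.68. *Emp1*, *Grb14* and *Gk* changed by −2.13, −2.14 and 4.56 in Atf4AKO mice.

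**Figure D5:**
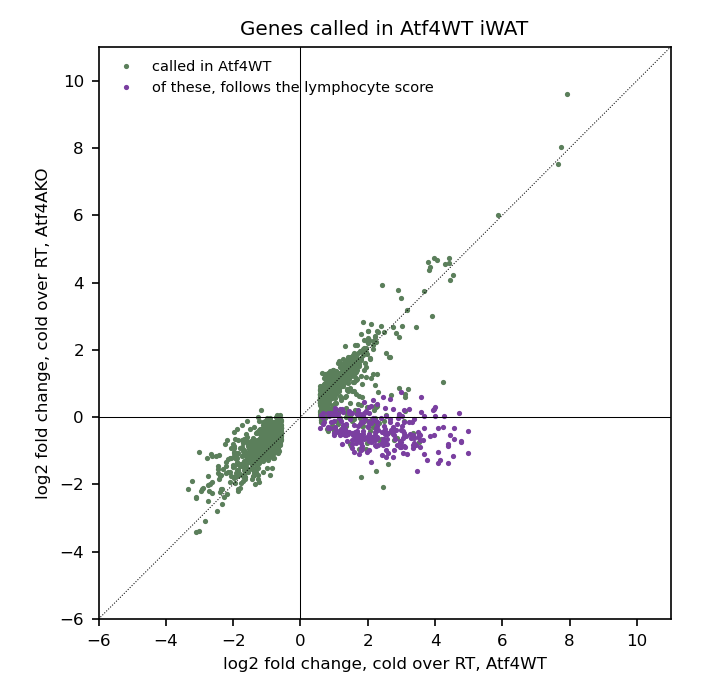
Log2 fold change of cold over RT in Atf4AKO iWAT (vertical axis) against that in Atf4WT iWAT (horizontal axis) for the 2362 genes called in Atf4WT iWAT, with a dotted line of equal change. Genes that follow the lymphocyte score (purple) lie near and below 0 on the vertical axis, with a median of −0.45, while the other higher genes have a median of 0.80.

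The test of the difference between the cold responses called 0 genes with limma and 0 with edgeR, and 621 genes had a fold over 1.5 and an unadjusted p-value under 0.05. DESeq2 called 96. The smallest adjusted p-value with limma was 0.474. It belonged, among others, to *Dnase1l3*, *Hsh2d*, *Rplp1*, *Eef1b2* and *Cd4*, the 5 genes of smallest unadjusted p-value. Without both muscle-rich libraries, 267 genes were called, all with a smaller response in Atf4AKO mice, and 201 of them follow the lymphocyte score. Without cold replicate 0 alone, 64 genes were called, 40 of which follow the score. These marks were set with the Atf4AKO libraries included, so the numbers of marked genes were fixed in large part by that choice. Removing these libraries takes away the highest lymphocyte score of the Atf4WT RT group and the lowest of the Atf4WT cold group.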

How the data were processed

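The deposited values are a normalized signal, namely gene-level reads scaled by library size factors of the DESeq2 kind. Per the labels and the methods of the study, the authors mapped reads to mm10 with STAR after SOAPnuke filtering, assigned unique alignments to genes by featureCounts and scaled the result in pyDESeq2. Versions and the strand setting of the counting are not given in the sources used here. Each listed gene has at least 1 read in every library. Whole reads were recovered for 100% of the values (within 0.001 of a whole number) by dividing by the value of 1 read. Fold changes are from limma 3.58.1 (R 4.3.3) on log2(normalized count + 1), fitted to all 12 libraries as 4 group means with a variance trend, which understates changes of low genes. Adjusted p-values are Benjamini-Hochberg values over 13404 genes, and a call needs a fold over 1.5 and an adjusted p-value under 0.05. The labels call the 3 samples of a group biological replicates, numbered 0 to 2.

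edgeR 4.0.16 and DESeq2 1.42.0 on the recovered reads were alternatives. Named genes are the 15 largest rises and 15 largest falls (called, mean of at least 50, groups not overlapping, neither mark), the 5 called genes that gained and the 5 that lost most counts, list members, the 5 most abundant of each mark, the 5 with the smallest p-value for the difference of responses, and *Atf4*. The uncalled muscle genes *Acta1*, *Atp2a1*, *Tnnt3*, *Tpm1* and *Myl1* were named after their values were seen. Members and lists were chosen with earlier results of these data known. On reads simulated for this comparison (13383 genes, 200 of them changed 3-fold), limma recovered 171 of the changed genes and called 12 unchanged ones. Promoters and gene positions are from RefSeq (GRCm38.p6, the same assembly as mm10), with positions for 13383 tested genes. Some genes are not reported here. Python 3.11.15 was used for the remaining steps.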

Additional observations from a re-analysis of the deposited data

Results flagged for a closer look

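In 5 named genes, every cold library of Atf4WT mice lay above every RT library while every cold library of Atf4AKO mice lay below every RT library. *Dnase1l3*, *Hsh2d*, *Rplp1* and *Eef1b2* were named for a small p-value of this difference, and *Limd2* for following the lymphocyte score. Their opposite directions were therefore fixed in part by that choice. How many of all tested genes share the pattern was not counted. The fitted difference between the responses, Atf4AKO minus Atf4WT on the log2 scale, was −4.51 for *Dnase1l3*, −4.77 for *Hsh2d*, −1.70 for *Limd2*, −0.51 for *Rplp1* and −0.47 for *Eef1b2*. None passed the adjusted test with limma, where the smallest adjusted p-value was 0.474. *Dnase1l3*, a nuclease gene of dendritic cells and macrophages, had 53.3, 41.4 and 83.4 counts at RT and 112, 404 and 679.9 after cold exposure in Atf4WT mice, and 54.8, 49.8 and 116 and 12.8, 18.1 and 16.1 in Atf4AKO mice. *Rplp1*, a ribosomal protein gene, had 12729, 13315 and 13250.4 and 16988, 16306 and 15909.5 in Atf4WT mice and 16024, 15179 and 14644 and 13363, 13706 and 13296 in Atf4AKO mice. The correlations with the lymphocyte score over the 12 libraries were 0.88 for *Dnase1l3*, 0.91 for *Hsh2d*, 0.94 for *Limd2*, 0.63 for *Rplp1* and 0.77 for *Eef1b2*, and the part of lymphocytes in these differences was not tested.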

How the results depend on the processing

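The counts of 1222 higher and 1140 lower genes became 919 to 1287 and 883 to 1222 when 1 of the 12 libraries was left out, and the difference between responses gave 0 to 64 genes. With the lymphocyte score as a covariate, 1131 genes were higher and 392 lower, of which only 644 and 314 were among the 1222 and 1140 called without it. Among the named single genes alone, 77 calls were lost in that fit without a change of sign. Another 5 were lost with a reversed sign, and 133 results stayed the same. The 77 include *Abcd2*, *Pdk4*, *Npr3*, *Crtac1*, *Ifit3*, *Mlxipl*, *Nnat* and *Perm1*. Of the list medians, 37 moved and 14 stayed the same. All 1140 lower genes stayed below 0 there, but they were chosen as lower from these same data. Their median log2 fold change was −0.82 in place of −0.91, and their median standard error 0.312 in place of 0.191. In that fit *Abcd2* shrank to −0.25, while *Bcat1* grew to −2.27. Within Atf4WT mice the score of every cold library exceeds that of every RT library. That fit reversed *Arhgap45* (−0.044), *Coro1a* (−0.44), *H2-Oa* (−0.091), *H2-Ob* (−0.58) and *Ptprc* (−0.38). An adjusted p-value without a fold threshold gave 2273 higher and 2000 lower genes. The difference between responses gave 267 genes without both muscle-rich libraries and 96 with DESeq2. edgeR called 1165 higher and 1180 lower genes and DESeq2 1342 and 1208. With the replicate block the counts were 1315 and 1281, but same-numbered libraries correlated at −0.18, 0.20 and 0.09, so the numbers were not taken as pairs. Other pseudocounts, filters, scalings and weights kept each count within 1.5 times. Depth limits low genes: the median standard error was 0.354 up to a mean of 185.8 counts and 0.113 above 1576 counts.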
